A study of Drosophila melanogaster with 3 samples.

Results

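Distal intron peaks in long genes are the peaks of a GFP-tagged zinc finger protein, CG6254, whose summits lie far from any promoter and inside the large introns of fly genes that span 50 kb or more. They were chosen by position alone from the authors' list of peaks on the dm6 genome build kept by irreproducible discovery rate (IDR) filtering, which retains peaks that rank alike in replicates. A summit was taken if it lay more than 1000 bp from every annotated transcription start site (TSS), inside a gene body and in no exon, and if the longest protein-coding gene over it, here called the host gene, was 50 kb or longer. The rule gave 457 members of 4426 IDR peaks (10.3%). The samples were 3 biological replicates of 1 group, mixed-sex Drosophila melanogaster embryos of 0 to 14 h from a transgenic line in which CG6254 carries GFP at its C-terminus, precipitated with an antibody against GFP. Sheared chromatin was used, and the replicates share a control alignment. No untagged or mock sample was analysed here, so the comparisons are between regions within the same samples. The whole embryo mixes all cell types and 14 h of development, and the lists hold no read counts, so the depth behind each peak is unknown.

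In Drosophila, long genes with large introns often encode developmental regulators and cell surface proteins of the nervous system, and their introns are known to carry enhancers that act on the gene from a distance. Proteins with C2H2 zinc fingers such as CG6254 contact DNA through their fingers, and many of them regulate transcription. Distal binding in introns is therefore usually described by the host gene, by the position along it and by the sequence under the summit.

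The strongest members lay in the introns of MSAmiP, ush, sbb, Tlk, Hr4, CG33158 and fz. The sequences around the summits of 7 of the 10 strongest members matched in every replicate are shown because the base composition under the summits is compared below. Each is 101 bases long, read from the forward strand of the RefSeq copy of the dm6 assembly, with the summit at the middle base and any TATAAA, or its reverse complement TTTATA, in capitals. The windows are chr3R:16876790-16876890 for MSAmiP_1, chr2L:481007-481107 for ush_1 and chrX:3742153-3742253 for Tlk_1. Those of the nuclear receptor gene Hr4 are chrX:1947693-1947793 for Hr4_1 and chrX:1951849-1951949 for Hr4_2. The last are chr3L:16480525-16480625 for CG33158_1 and chr3L:14304012-14304112 for fz_1.
MSAmiP_1: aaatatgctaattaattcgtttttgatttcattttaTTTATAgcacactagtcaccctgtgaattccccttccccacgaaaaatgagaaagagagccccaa
ush_1: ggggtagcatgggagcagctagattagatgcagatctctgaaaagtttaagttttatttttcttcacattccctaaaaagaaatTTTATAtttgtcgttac
Tlk_1: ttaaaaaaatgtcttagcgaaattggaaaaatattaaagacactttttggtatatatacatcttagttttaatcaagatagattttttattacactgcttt
Hr4_1: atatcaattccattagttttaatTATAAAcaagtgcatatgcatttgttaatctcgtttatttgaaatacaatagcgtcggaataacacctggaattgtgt
CG33158_1: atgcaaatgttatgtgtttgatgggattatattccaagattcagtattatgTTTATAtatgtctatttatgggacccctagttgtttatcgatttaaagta
Hr4_2: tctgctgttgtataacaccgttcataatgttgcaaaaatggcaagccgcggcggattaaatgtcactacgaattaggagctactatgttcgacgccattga
fz_1: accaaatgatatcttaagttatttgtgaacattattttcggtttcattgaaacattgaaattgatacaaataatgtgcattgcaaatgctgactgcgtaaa
Of these windows 4 of 7 hold the capitals, and their GC content ran between 21.8% in Tlk_1 and 43.6% in Hr4_2, which is above the 42.8% of the members' flanks.

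The member of highest deposited signal, MSAmiP_1, lay on 3R between 16876536 and 16877096 in the bithorax complex, inside an intron of MSAmiP (FBgn0288835) and of the long noncoding RNA gene lncRNA:iab8. Its signal was 2516.74 in the pooled data, rank 56 of the IDR list, and its counterparts ranked 57, 56 and 60 in replicates 1, 2 and 3. The signal is the authors' own value for each peak; its scale is not stated, and it serves here to rank peaks within a list. The next member lay in the first intron of ush (FBgn0003963), which encodes a cofactor of GATA factors, on 2L between 480928 and 481268, with a signal of 1775.04 and ranks of 88, 79 and 64 in the replicates. Its nearest TSS, 1369 bp away, belongs to cbt, a zinc finger gene.

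The other named members lay in sbb, Hr4, Tlk, fz and CG33158. The corepressor gene sbb (FBgn0285917) on 2R held 3 of the 10 strongest matched members, with IDR ranks of 105, 185 and 246, between 18.8 and 22.0 kb from its 5′ end. In Hr4 (FBgn0264562) on X the members between 1947607 and 1947870 and between 1951788 and 1952036 had ranks of 159 and 234. In replicates 1, 2 and 3 the first ranked 209, 177 and 136 and the second 185, 276 and 286, so their order turned in replicate 1. The member of Tlk (FBgn0283657), a kinase gene, on X between 3742072 and 3742368 had rank 121, and 121, 120 and 134 in the replicates. That in fz (FBgn0001085), a Wnt receptor gene, on 3L between 14303926 and 14304187 had rank 237, and 283, 195 and 298 in the replicates. The member of CG33158 (FBgn0053158) on 3L between 16480425 and 16480708, rank 187, lay over 2 genes. It was closest to the TSS of aos, an inhibitor of the EGF receptor, at 3075 bp. Their counterparts ranked 298 or better in all 3 replicates, but a match in each was required for a member to be named.

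Members were seldom among the strongest peaks. The strongest 443 IDR peaks held 18 members (3.94% of all members, exact 95% interval 2.35 to 6.15), 62 peaks in distal introns of shorter genes (6.93% of those, interval 5.35 to 8.79) and 320 peaks within 1000 bp of a TSS (13.5% of those, interval 12.2 to 14.9). Intervals in this text are Clopper-Pearson intervals and cover counting error only. The median signal of members was 222, with quartiles of 178 and 307, against 226 for distal intron peaks of shorter genes and 237 for peaks near a TSS. At the default width of 416 bp stood 366 of 457 members (80.1%) and 75.6% of all IDR peaks. In annotated mobile elements lay 1 member (0.219%) and 6 of all 4426 IDR peaks (0.136%).

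The share of long-gene introns changed with rank in the authors' pooled relaxed list, which holds 30000 peaks and is described by the authors as peaks and background. Distal introns of long genes held 4.06% of the peaks of rank 1 to 443 (interval 2.43 to 6.35), 10.3% of those of rank 444 to 1106 and 11.2% of those of rank 1107 to 2213 and again of rank 2214 to 4426. Below the IDR list their share was 12.4% up to rank 10000, 15.4% up to rank 20000 and 16.5% in the last 10000 (interval 15.8 to 17.2). Distal introns of shorter genes held 14.0% of the strongest 443 and 22.8% of the last 10000. Eligible intron DNA of long genes, defined below, makes up 17.9% of the main chromosome arms, so the weakest peaks came closest to that share. For shorter genes it makes up 17.5%, and their 22.8% of the last 10000 peaks stood above it. In that class the density in long genes was still 0.71 times that in shorter genes.

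**Figure D1:**
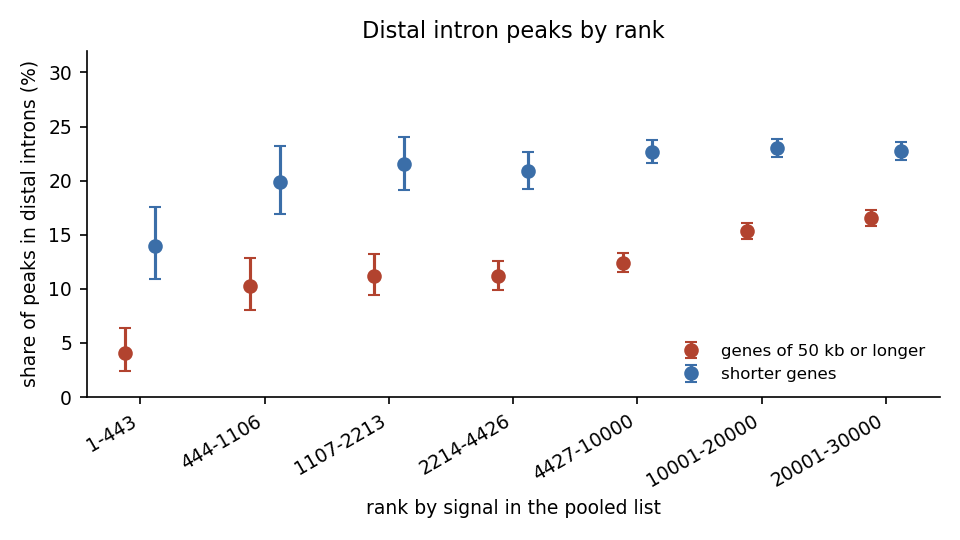
Share of peaks of the pooled relaxed list (y axis, percent) that lie in distal introns of genes of 50 kb or longer and of shorter genes, by rank of signal (x axis, strongest at the left); bars are exact 95% intervals for counting error. The share of long-gene introns is 4.06% in the first class and 16.5% in the last, and stands below that of shorter genes in all 7 classes.

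Over all 3 replicates together, the members were found again about as often as other IDR peaks, but single replicates differed. A counterpart within 200 bp among the 4426 strongest peaks was present in replicate 1 for 336 members (73.5%), in replicate 2 for 355 (77.7%) and in replicate 3 for 398 (87.1%, interval 83.7 to 90.0). Over all IDR peaks the shares were 76.5%, 81.5% and 80.7% (interval 79.5 to 81.8 in replicate 3), so members stood below them in replicates 1 and 2 and above them in replicate 3. In all 3 replicates it was present for 257 of 457 members (56.2%, interval 51.6 to 60.8). The background over all IDR peaks is 56%, and the share was 54.3% for distal intron peaks of shorter genes and 53.5% for distal intergenic peaks. The share of members was thus close to the background. For 6 members (1.31%) no replicate held a counterpart, close to the 52 of all 4426 IDR peaks (1.17%). The IDR list was made from these replicates, so the shares only describe it. Replicate 3 stood apart in the kind of peaks it recovered. It held counterparts of 85.5% of the distal intron peaks of shorter genes and of 76.5% of the peaks near a TSS, while replicate 1 held 73.7% and 79.7% of the same peaks.

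Taken alone with the same rule, the 4426 strongest peaks of replicates 1, 2 and 3 contained 407, 400 and 523 distal intron peaks in long genes. These are 9.20%, 9.04% and 11.8% of the peaks, a mean of 10.02% ± 1.56 (SD, n = 3). Replicate 3 was the highest. Because the labels call the replicates biological but do not say how the embryo collections differed, every p-value below applies only to these 3 samples. The exact paired permutation test used throughout flips the signs of the replicate differences and cannot give a two-sided p below 0.25 with 3 replicates, so no comparison here can pass a threshold of 0.05. It gives 0.25 whenever all 3 differences share a sign, whatever their size or spread.

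Peaks were sparser in the distal introns of long genes than in those of shorter genes. To compare them, eligible DNA was counted as all bases that fulfil the position rule, 23.9 Mb in long genes and 23.4 Mb in shorter protein-coding genes. Replicates 1, 2 and 3 had 17.0, 16.7 and 21.9 peaks per Mb in long genes and 33.8, 35.7 and 42.1 peaks per Mb in shorter genes. The groups did not overlap, and the log2 ratio was -0.99, -1.09 and -0.94 in replicates 1, 2 and 3. Its mean was -1.01 ± 0.08 (SD, n = 3; exact paired permutation test, two-sided, p = 0.25, the smallest possible). In the IDR list the densities were 19.1 and 38.3 peaks per Mb.

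A part of this difference sat in a few giant genes near the centromeres. The 5 Mb of each arm next to its centromere, with chromosome 4, hold 6.84 of the 23.9 Mb of eligible long-gene DNA but 18 of 457 members. Of the 37 long genes that lie mostly there, 8 were hosts, against 136 of the 263 others with eligible DNA. Among them is Myo81F on 3R, a myosin gene whose 1948.53 kb of eligible DNA held no peak in the IDR list or in the strongest peaks of any replicate. Pzl on 3R and lovit on 3L, with 701 and 428 kb of eligible DNA, held none either. The lists hold no measure of how well reads can be placed there, so DNA without binding and DNA where reads cannot be placed cannot be told apart, which bears on the empty genes and on the ratio over all DNA. Without that DNA, a choice made after the values were seen, the IDR densities were 25.7 peaks per Mb in long genes and 40.5 in shorter genes, and the mean log2 ratio over replicates was -0.67 (exact paired permutation test, p = 0.25). Annotated mobile elements make up 7.95% of eligible DNA in long genes and 6.69% in shorter genes, and with them left out, also chosen after the values were seen, the mean log2 ratio was -0.996.

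Density declined along the whole range of gene length above 20 kb. With the DNA next to centromeres left out, the IDR list had 49.8 peaks per Mb in genes of 10 to 20 kb and 36.2 in genes of 20 to 50 kb. Genes of 50 to 75 kb had 28.9, those of 75 to 100 kb 25.6, those of 100 to 150 kb 23.8 and those of 150 kb or more 20.05. With all DNA the last class had 6.71 peaks per Mb. Replicate 3 had the highest density in all 7 classes, and the order of the 5 classes above 20 kb was the same in every replicate, with and without that DNA. Without it, the means of 50 to 75 kb (27.9 ± 4.76) and 75 to 100 kb (26.4 ± 4.27) differed by less than their spread, as did those of 100 to 150 kb (21.7 ± 2.76) and 150 kb or more (18.6 ± 3.42; SD, n = 3).

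**Figure D2:**
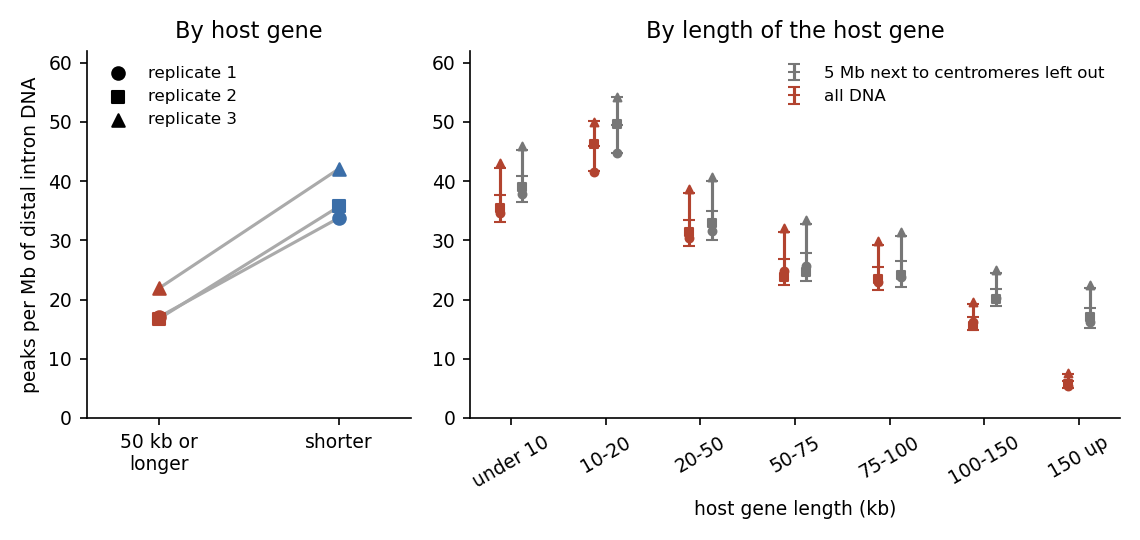
Peaks per Mb of eligible distal intron DNA in the strongest peaks of each replicate: left, genes of 50 kb or longer and shorter genes, with lines joining a replicate; right, classes of host gene length with the mean and SD over 3 replicates, with all DNA and without the 5 Mb next to centromeres. In each replicate the long genes stand lower (16.7 to 21.9 against 33.8 to 42.1 peaks per Mb), and the class of 150 kb or more moves most when centromere DNA is left out.

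Bases of long genes also lie farther from a TSS, so the comparison was repeated within classes of TSS distance, again chosen after the values were seen. Between 1 and 2 kb from a TSS the IDR list had 34.9 peaks per Mb in long genes and 56.3 in shorter genes, with a mean log2 ratio over replicates of -0.68 ± 0.11. Between 2 and 5 kb the densities were 36.6 and 38.7 and the mean log2 ratio was -0.09 ± 0.14, with both signs among the replicates (exact paired permutation test, p = 0.5). Between 5 and 10 kb they were 22.2 and 33.1 (mean log2 ratio -0.54 ± 0.12), and between 10 and 20 kb 16.3 and 23.1 (-0.48 ± 0.03). In the classes from 1 to 2, 5 to 10 and 10 to 20 kb every replicate was lower in long genes (exact paired permutation test, p = 0.25 in each). Beyond 20 kb, where 7.82 of the 23.9 Mb of long-gene DNA but 0.572 Mb of shorter-gene DNA lie, the IDR list had 6.01 peaks per Mb in long genes and 6.996 in shorter genes, the last from 4 peaks. There the log2 ratio was 0.43, 0.31 and -0.66 in replicates 1, 2 and 3. Without the DNA next to centromeres it turned round, with 15.5 peaks per Mb in long genes and 10.6 in shorter genes and log2 ratios of 1.17, 1.03 and 0.09 in the replicates (exact paired permutation test, p = 0.25). The SDs are over 3 replicates.

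Members lay farther from a TSS than distal intron peaks of shorter genes, but nearer than the DNA open to them. The nearest TSS of any gene was at a median of 5.33 kb, and at most 50.3 kb for a member of heph, against a median of 3.11 kb for distal intron peaks of shorter genes. More than 5 kb from any TSS lay 240 members (52.5%) and 274 peaks of shorter genes (30.6%), and 131 members (28.7%) were more than 10 kb away. Of the eligible bases, 74.9% in long genes and 41.4% in shorter genes lie more than 5 kb from a TSS. In replicates 1, 2 and 3 the share of peaks of long genes beyond 5 kb was 50.4%, 52.3% and 53.9%, a mean difference from the share of bases of -22.7 ± 1.78 percentage points (SD, n = 3; exact paired permutation test, two-sided, p = 0.25). For shorter genes the difference was -11.4 ± 0.570 points, and both comparisons with bases were added after the values were seen. Without the DNA next to centromeres 68.0% of bases in long genes and 40.5% in shorter genes lie that far. The differences were then -15.8 ± 1.66 points for long genes and -10.6 ± 0.775 points for shorter genes (SD, n = 3). The median distance from the 5′ end of the host gene was 30.7 kb, with quartiles of 12.8 and 55.8 kb. The exon-free stretch around a member was 15.7 kb long at the median, against 6.69 kb for shorter genes. For 284 members (62.1%) the nearest TSS belonged to the host gene, while for the others it belonged to another gene, so a host is a position and not a target. Of all members 32 lay over more than 1 gene.

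The beginning of the host genes held more members than its share of bases. The first intron of the longest transcript held 27.4% of members and 16.7% of eligible bases. For shorter genes the shares were 56.4% of peaks and 38.3% of bases. In replicates 1, 2 and 3 the share of peaks of long genes exceeded that of bases by 10.6, 10.6 and 7.82 percentage points, a mean of 9.68 ± 1.61 (SD, n = 3; exact paired permutation test, two-sided, p = 0.25). The value was 23.0 points when the first intron of any transcript counted and 6.83 points without the DNA next to centromeres. With each host cut into 4 parts of equal length, members stood at 35.4%, 24.5%, 23.2% and 16.8% in order from the 5′ end, against 25.3%, 26.9%, 26.3% and 21.6% of eligible bases. The part at the 5′ end held 34.9%, 36.0% and 34.0% of the peaks of replicates 1, 2 and 3.

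Many long genes were no hosts. Of 307 protein-coding genes of 50 kb or longer, which are 2.20% of 13945, 144 held a member, a background of 46.9%. Replicates 1, 2 and 3 taken alone had peaks in 140, 140 and 155 long genes, 122 genes had one in every replicate and 143 in none. Members were unevenly spread: 43 hosts held 1, 67 held 2 to 4, and 34 held 5 or more and with them 226 of 457 members (49.5%). The median was 3 members per host, against 1 for the 545 shorter genes with a distal intron peak. Genes chosen for length hold more eligible DNA each, so these medians do not compare density. Per Mb of eligible DNA the IDR list had 19.1 peaks in long genes and 38.3 in shorter genes. Within 5 kb of another member of the same host lay 217 members (47.5%), and 404 distal intron peaks of shorter genes (45.1%) had such a neighbour.

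The 12 host genes with most members held 106 of them. The 12th place was tied, since tai also held 7 members. The adhesion gene kirre (FBgn0028369; X, 2740384 to 3134532), known for myoblast fusion, had 13 members, and 13, 10 and 16 peaks in replicates 1, 2 and 3. Of its members 2 lay at 46.4 and 47.0 kb from the 5′ end, and the other 11 lay between 245 and 358 kb. In sbb (2R, 18278198 to 18357296) 9 of 10 members were matched in all replicates, and the replicates had 11, 9 and 12 peaks. The zinc finger gene jing (FBgn0086655; 2R, 6502006 to 6621792) had 10 members, all in its first intron, and 8, 7 and 10 peaks in the replicates. At 41.1 members per Mb kirre was the least dense of these 3, against 188 for sbb and 99.0 for jing.

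Of the next hosts, CG1677 (FBgn0029941, X) had 9 members and 10, 8 and 15 peaks in the replicates, Eip75B (FBgn0000568, 3L), an ecdysone-induced nuclear receptor gene, 9 members and 6, 13 and 8 peaks, and hth (FBgn0001235, 3R), a homeodomain cofactor of Hox proteins, 9 members and 9, 6 and 7 peaks. With 8 members each followed Hr4 (6, 6 and 8 peaks), shn (FBgn0003396, 2R), a zinc finger protein of BMP signalling (9, 6 and 11 peaks), the Hox gene Antp (FBgn0260642, 3R; 7, 5 and 6 peaks) and CG43658 (FBgn0263706, X; 6, 5 and 6 peaks). The teneurin gene Ten-a (FBgn0267001, X) and the wing vein gene px (FBgn0003175, 2R) held 7 each, with 5, 7 and 8 peaks and 4, 5 and 7 peaks. Each of the 12 had at least 4 peaks in every replicate. The densest of the 12 was shn, with 207 members per Mb of eligible DNA. In Ten-a all 7 members lay between 159 and 205 kb from the 5′ end, and in CG1677 all 9 lay between 69.5 and 113 kb. The strongest of CG1677, CG1677_1 to CG1677_5, each lay over 2 or 3 genes. Their nearest TSSs belonged to unc-119, Atg5 or CBP and not to the host.

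**Figure D3:**
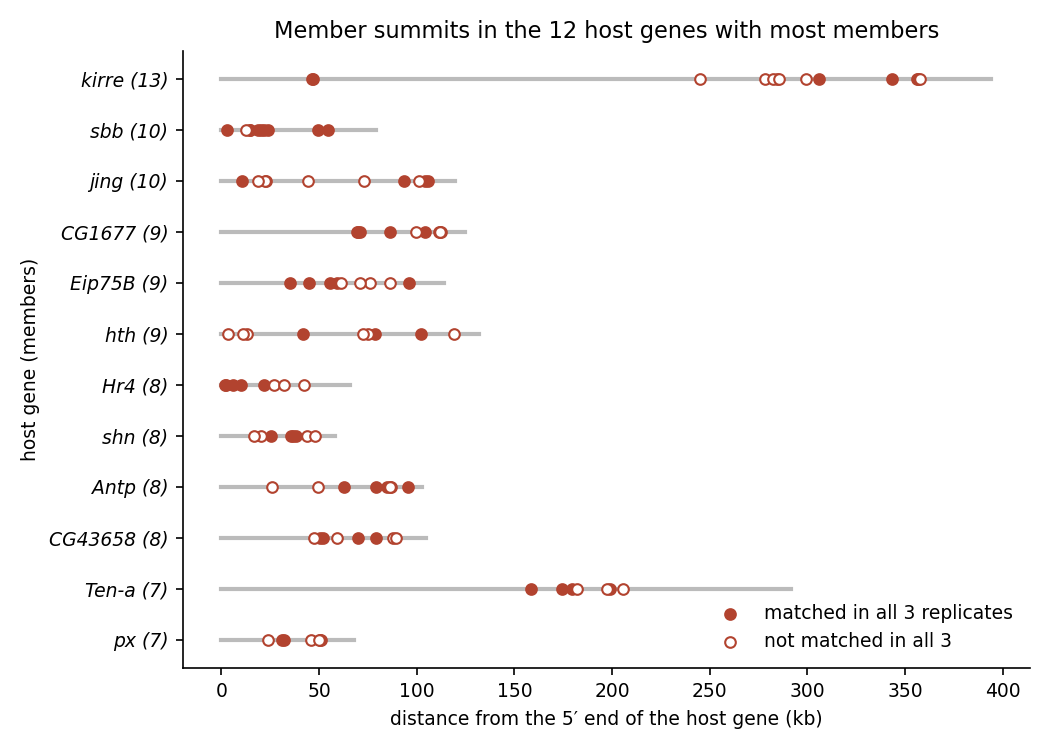
Member summits (points) along the 12 host genes with most members, as distance from the 5′ end of the gene (x axis, kb), with grey lines for the length of the gene and filled points for members matched in all 3 replicates. Members of kirre, CG1677 and Ten-a crowd into a stretch of the gene, and those of jing and hth are spread along it.

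The 10 gene lists were set beside all long genes, for which the IDR list had 19.1 peaks per Mb and the replicates 17.0, 16.7 and 21.9. Of all 307 long genes 46.9% were hosts, the background for the host counts below. The lists were chosen with earlier results of these data known, and 96 of the long genes stand in any of them. Nuclear receptors and ecdysone response genes had the highest mean density of the lists, though it lay within the spread of the next list. Of 7 long genes 6 were hosts, with 32 members, and the replicates had 60.8, 86.1 and 83.6 peaks per Mb (mean 76.8 ± 13.9, SD, n = 3). Beside Eip75B and Hr4 the members lay in tai, a coactivator of steroid receptors (7 members), in ftz-f1 (4), and in Eip74EF and the ecdysone receptor gene EcR (2 each). Eip93F held none. The median was 4 members per long gene, against 0 over all long genes.

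The Wnt, Hedgehog, BMP and Notch list followed, and in replicate 3 it stood above the nuclear receptor list. Of 9 long genes of Wnt, Hedgehog, BMP and Notch signalling 8 were hosts, with 31 members, a median of 4 and 57.4, 59.3 and 84.2 peaks per Mb in the replicates (mean 67.0 ± 14.9). Beside shn these were the Wnt receptor genes fz and fz2 and the BMP receptor gene tkv (FBgn0003716, 2L) with 5 members each, the Notch coactivator gene mam with 4, dally with 2, and nmo and kuz with 1 each, while sfl held none. Among 4 long genes of EGF receptor, FGF and Ras signalling, pnt (FBgn0003118, 3R), an ETS factor, held 6 members, the growth factor gene Pvf3 3 and the FGF gene ths 2, while the MAP kinase gene rl, in the DNA next to the centromere of 2R, held none. The replicates differed most in this list, with 27.5, 49.5 and 71.5 peaks per Mb (mean 49.5 ± 22.0), and ths had 0, 1 and 3 peaks in them.

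The other lists of transcription factors had means below that of the Wnt list and close to that of the EGF receptor list, within its spread. Of 12 long genes in the zinc finger and BTB list 7 were hosts, with 35 members and a median of 2. The replicates had 51.6, 41.3 and 63.5 peaks per Mb (mean 52.1 ± 11.1). They were led by sbb, shn and bab1 (FBgn0004870, 3L; 6 members), followed by psq with 4, luna and pros with 3 each and mamo with 1. The list as made counts pros, which is a homeodomain gene. The other 5, lola, br, fru, chinmo and ab, held no member and at most 1 peak in a replicate. Of these br could hold none, since its DNA was assigned to the longer gene Mur2B, which spans it. Mur2B held no peak in the IDR list or in the strongest peaks of any replicate. Of 8 long genes in the list of homeodomain, forkhead and bHLH factors 6 were hosts, with 32 members and a median of 3. The replicates had 53.8, 44.9 and 52.0 peaks per Mb (mean 50.2 ± 4.75). Beside hth, Antp and tai these were sima and ct with 3 members each and the Hox gene Ubx with 2. No member lay in twi or in bi, a T-box gene that the list also counts. The genes tai and shn stand in 2 lists each, so the lists are not independent.

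Cell surface and RNA-binding lists had densities near those of all long genes over all DNA, without a test of the difference. In the IDR list they had 21.8 and 17.9 peaks per Mb, against 19.1 over all long genes. Both stood below the 25.7 of long genes without the DNA next to centromeres, though the list values are for all DNA. Of 24 long genes of axon guidance and cell adhesion 12 were hosts, with 46 members, a median of 0.5 and 18.04, 19.5 and 24.7 peaks per Mb (mean 20.7 ± 3.50). The top 3, kirre, Ten-a and the semaphorin gene Sema1a (FBgn0011259, 2L; 6 members), held 26 of them. Of 13 long RNA-binding protein genes 10 were hosts, with 26 members, a median of 2 and 12.4, 13.8 and 19.3 peaks per Mb (mean 15.2 ± 3.65). The translational repressor gene pum (FBgn0003165, 3R) held 6, cpo 4, and shep and Rbfox1 3 each.

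The list of ion channels and synaptic proteins held 1 member. Of its 12 long genes 1 was a host, nAChRalpha5 (FBgn0028875, 2L), a receptor subunit gene for acetylcholine, with 1 member of rank 436 that was matched in all replicates. The replicates had 2.92, 1.46 and 5.83 peaks per Mb (mean 3.40 ± 2.23), each below the 17.0, 16.7 and 21.9 over all long genes. The potassium channel genes Sh, Shab, eag and SK, the sodium channel gene para and the calcium channel gene cac held no peak in the IDR list or in any replicate, and nAChRalpha3 had no member but 1, 0 and 3 peaks in replicates 1, 2 and 3. Outside the list, the potassium channel gene Elk held 1 member and the synaptic scaffold gene Prosap 2, so the list does not stand for all such genes. In the cytoskeleton and muscle list 2 of 8 long genes were hosts, shot with 2 members and sdk with 1, with 19.7, 15.8 and 7.88 peaks per Mb (mean 14.5 ± 6.02). Ank2 among the 8 could hold none, since its DNA was assigned to the longer gene CG32373, which spans it and held no peak either. The chromatin list held 1 long gene, Nipped-A, with none. No test was made over the lists, and the mean over all long genes includes the sparse DNA next to centromeres, without which the IDR density was 25.7.

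**Figure D4:**
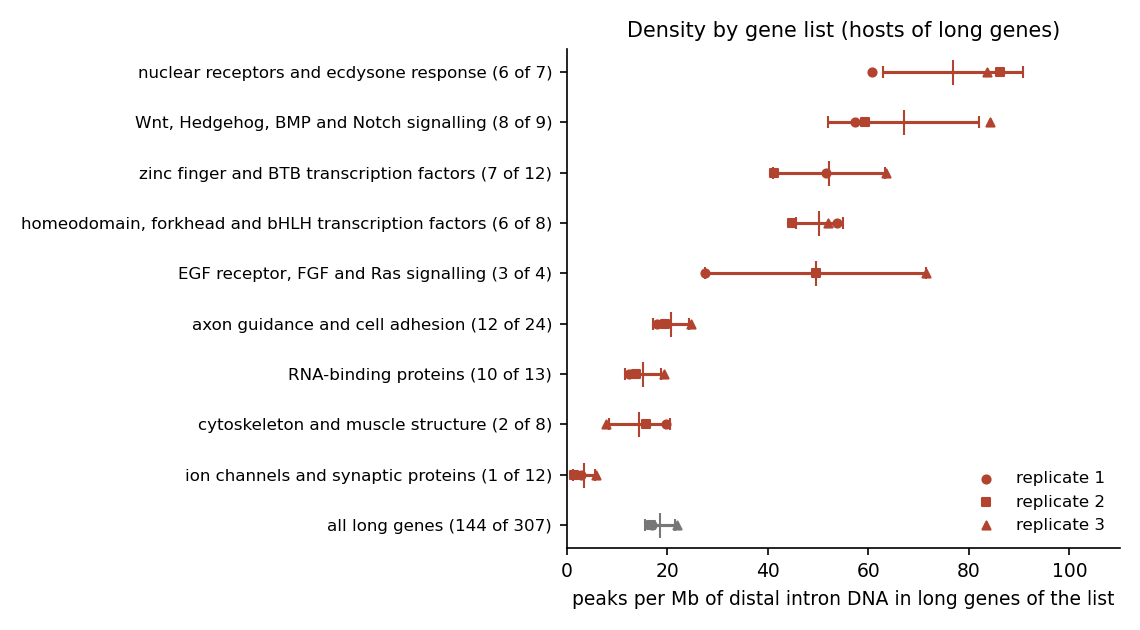
Peaks per Mb of eligible distal intron DNA (x axis) in the long genes of 9 lists and in all long genes, with 1 symbol per replicate and the mean and SD of 3 replicates; brackets give host genes of long genes. The 5 lists of transcription factors and signalling lie at means of 49.5 to 76.8, all long genes at 18.6 and ion channels at 3.40. The lists were chosen with earlier results of these data known.

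Promoters of host genes also carried peaks more often than those of other long genes, a measure that the position rule did not use. A summit within 500 bp of a TSS of the gene was present at 66 of 144 hosts (45.8%, interval 37.5 to 54.3) and at 20 of 156 other long genes with eligible DNA (12.8%, interval 8.01 to 19.1). With hosts and promoter peaks taken from each replicate, the shares were 49.3% of hosts and 15.6% of other long genes in replicate 1, 51.4% and 16.3% in replicate 2, and 36.8% and 11.0% in replicate 3. The difference was 31.5 ± 5.07 percentage points (SD, n = 3; exact paired permutation test, two-sided, p = 0.25). Hosts had somewhat more TSSs, a median of 2.5 against 2. Among genes with 1 to 3 TSSs the IDR shares were 34.3% of 102 hosts and 8.96% of 134 others, and among those with 4 to 6 they were 71.4% of 28 and 44.4% of 18. With 7 or more TSSs it was 11 of 14 hosts and 0 of 4 others. Both kinds of peak come from the same libraries. Of the 37 long genes that lie mostly in the DNA next to centromeres 8 were hosts, so most of them stand among the others. How well reads can be placed there is unknown, for promoters as for introns. No shares without these genes are given here.

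The DNA under the members was poor in G and C. Over the members, the 101 bases centred on the summit had 33.8% GC, and windows of the same length centred 350 bp away had 42.8%, while 232122 adjoining windows of that length tiled over the eligible DNA of long genes had 40.2%. The summit was lower than its flank in 339 of 457 members (74.2%). In replicates 1, 2 and 3 the difference was -6.62, -7.83 and -10.2 percentage points, a mean of -8.23 ± 1.85 (SD, n = 3; exact paired permutation test, two-sided, p = 0.25). Replicate 3, which held most distal peaks, had the deepest drop. Distal intron peaks of shorter genes had 33.7% at summits and 43.1% in flanks, and the drop of members differed from theirs by -0.24 ± 0.44 points, with both signs among replicates (exact paired permutation test, p = 0.5). Summits near a TSS had 35.5% against 43.7% in flanks.

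**Figure D5:**
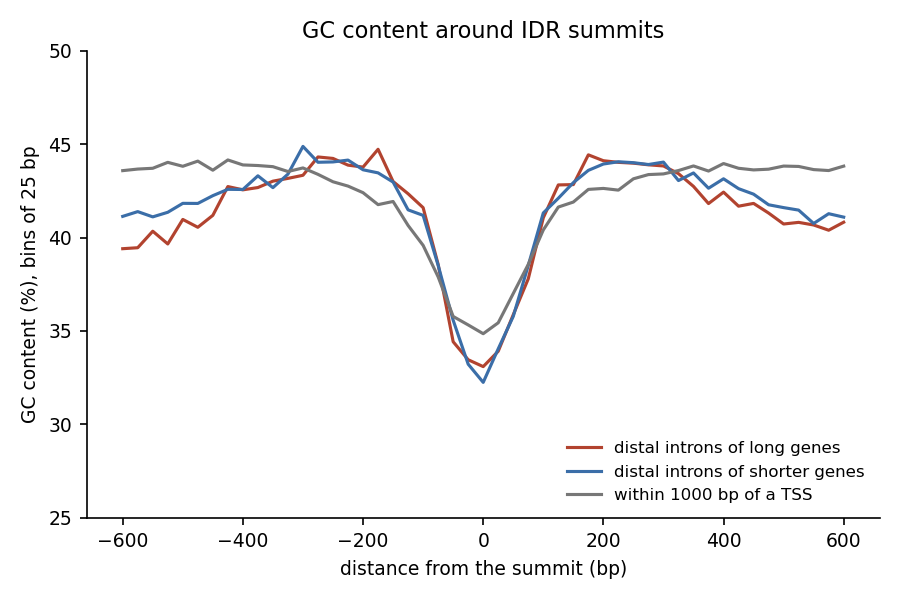
GC content (y axis, percent, in bins of 25 bp) by distance from the summit (x axis, bp) for IDR peaks in distal introns of long genes, in distal introns of shorter genes and within 1000 bp of a TSS. All fall to a minimum at the summit, 33.1% for the members and 32.3% for shorter genes, and the members stand at 39.4% and 40.8% at 600 bp on either side.

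Of the 15 short motifs searched on both strands, TATAAA, the core of the TATA box, separated member summits from flanks most. It was present in 23.0% of the 101-base summit windows, as in MSAmiP_1 and Hr4_1 above, and in 8.32% of flanks. In the replicates summits held it in 23.6%, 19.8% and 23.1% and flanks in 10.1%, 9.50% and 11.7%, a mean difference of 11.7 ± 1.65 points (SD, n = 3; exact paired permutation test, two-sided, p = 0.25, Benjamini-Hochberg adjusted over 15 motifs p = 0.625). The share was 22.0% over all IDR summits and 12.6% over all windows of that length in the eligible DNA of long genes. When those windows were weighted to the GC content of the member summits, their share was 20.5%, close to the 23.0% of the members. AT repeats (ATATATAT) were found in 3.06% of summits, 1.09% of flanks and 3.18% of GC-weighted windows.

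A further 4 motifs had the same sign in all replicates, lower at summits than in flanks. They were the E-boxes CAGCTG (3.06% of summits, 4.595% of flanks, mean difference over replicates -1.99 points) and CACGTG (0.438% and 2.63%, -1.28), GAGAGAG, known from sites of the GAGA factor (2.41% and 2.84%, -1.14), and CACACACA (2.19% and 4.595%, -1.26). GAGAGAG was in 1.37% of all long-gene windows and 0.909% of those weighted to the summit GC, so summits held it more often than both. In the weighted windows CAGCTG stood at 2.19%, CACACACA at 1.80% and CACGTG at 0.696%. Against these windows summits held CAGCTG and CACACACA more often and CACGTG less often. None of the 4 motifs can pass an exact permutation test with 3 replicates. With a gene length limit of 100 kb the differences of CACGTG and GAGAGAG were positive, at 0.258 and 0.0564 points. Other core promoter elements were rare among the members. The DNA replication-related element TATCGATA was in 0.219% of member summits, 1.56% of summits near a TSS and 0.213% of all long-gene windows, and GGTCACAC, the core of Ohler motif 1, in 0.438%, 1.22% and 0.155%. Homeodomain cores (TAATTA), at 8.10% of summits, 7.44% of flanks and 7.19% of all long-gene windows, differed between replicates in sign. In windows weighted to the summit GC they stood at 10.8%, above the summits. The remaining 6, which had no common sign either, were the Zelda core CAGGTAG, the AP-1 site TGACTCA, the nuclear receptor core site AGGTCA, the GATA site AGATAAG, the Grainy head site AACCGGTT and the A tract AAAAAAAA. Of these AGGTCA, a core sequence bound by receptors such as those of Eip75B and Hr4, was in 1.97% of summits, 1.31% of flanks and 2.56% of all long-gene windows. A match is a string of letters and not a bound site.

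Near the limits of the rule, the 5 members in the shortest hosts lay in genes of 50.7 to 50.95 kb with signals of 163 to 474, and the 5 peaks just outside lay in genes of 49.9 kb with signals of 151 to 503. The 5 members closest to a TSS were 1001 to 1044 bp away, and the 5 nearest peaks that the distance left out were 966 to 992 bp away.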

How the data were processed

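Peak lists of CG6254-GFP chromatin immunoprecipitation sequencing in 3 biological replicates were used on dm6. Per the readme texts deposited with the samples, each replicate list was called on 1 replicate against a shared control alignment, the pooled list on all replicates, and IDR filtering gave the final list. Not given in the sources used here are the aligner, the peak caller, their versions and the IDR threshold. The authors' deposited signal values have no stated scale and only ranked or described peaks. Summits are the deposited offset from the peak start, counted from 1. The dm3 lists were not used.

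Genes and exons came from Ensembl release 115 with mobile elements left out, and sequence from the RefSeq copy of dm6. Each replicate was represented by its 4426 strongest peaks, and the replicate was the unit of every test. Each base was assigned to the longest protein-coding gene over it. Tests were exact paired permutations over replicates, two-sided, in Python 3.11.15 with scipy 1.17.1. Members, gene lists and motifs were chosen with earlier results of these data known. Named were the 10 members of highest signal matched in all replicates, the 12 hosts with most members and the top 3 long hosts of each list, and further list members were named after their values were seen. Of 368 list symbols 3 were not matched. The steps were tested on simulated data with known densities, shares and motifs. Alternatives were other limits of gene length and TSS distance, other numbers of peaks, match distances and windows, leaving out each replicate, and, added after seeing the data, leaving out mobile elements or the DNA next to centromeres, splitting by TSS distance and comparing with the share of bases far from a TSS.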

Additional observations from a re-analysis of the deposited data

How the results depend on the processing

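Apart from the split by TSS distance, the direction of the density ratio, of the first-intron excess and of the GC drop was the same under the alternatives run for each, with means over replicates of -1.57 to -0.67, 6.83 to 23.0 points and -9.49 to -6.22 points, and the exact permutation p could not fall below 0.25, or below 0.5 with 2 replicates. Within classes of TSS distance the mean log2 ratio was -0.68 to -0.09 up to 20 kb, with replicate 1 at 0.01 between 2 and 5 kb, and beyond 20 kb it was 0.03, or 0.77 without the DNA next to centromeres. The set itself depends on the rule. With limits of 30 and 100 kb there were 737 and 153 members (16.7% and 3.46% of IDR peaks), and with TSS distances of 500 and 2000 bp the share was 11.6% and 8.97%. The stronger 2213 IDR peaks held 210, and leaving out a replicate left 282 to 318. The log2 density ratio of the IDR list was -1.48 with 100 kb, -0.89 with 2000 bp and -0.65 without the DNA next to centromeres. The share matched in all replicates was 50.98% with 100 kb, 24.7% with 2213 and 92.1% with 10000 peaks per replicate, 90.95% among the stronger 2213 IDR peaks and 49.7% within 100 bp. Some motif differences (points) changed sign. With 100 kb these were CACGTG 0.258, GAGA 0.0564, Zelda -0.256, nuclear receptor core site -0.717 and homeodomain -0.563. With windows of 100 bp on each side Zelda stood at -0.0819, and with 25 bp homeodomain at -0.430. Over the fits that leave out 1 replicate, AP-1 ran from -0.41 to 0.127 and homeodomain from -0.101 to 3.45. For both the sign turned without replicate 3. The cause of these changes was not tested. Replicates share a control and 1 tagged line, the lists hold no reads, and host genes are positions, not targets.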

Other observations

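Densities by arm depend on the DNA next to centromeres. Per Mb of eligible long-gene DNA the IDR list had 27.1 on 2L, 22.1 on X, 17.5 on 2R, 16.6 on 3L and 15.9 on 3R, and none on the 0.0223 Mb of chromosome 4. The arm 2L was highest in each replicate, at 26.8, 27.1 and 30.7 per Mb, and X had 18.8, 15.9 and 27.0. Without the 5 Mb next to centromeres, chosen after the values were seen, the IDR list had 29.2 on 2L, 27.7 on 2R, 27.5 on 3R, 23.1 on 3L and 22.998 on X, and in replicate 3 the arm 2R, at 33.8, stood above 2L, at 32.7.

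Short words picked because they were more frequent at member summits than in flanks were counted again in distal intron peaks of shorter genes, which did not pick them. The 12 words of 8 bases with the largest excess were all rich in A and T, and each was also more frequent at summits than in flanks of shorter genes. Those flanks had 43.1% GC against 33.7% at summits, so such words can be rarer there by base composition alone. Some words were rarer at shorter-gene summits than in windows weighted to the GC content of those summits. They were AAATATAA (3.24% against 4.58%), AAAATATA (4.47% against 5.39%), AAATATAT (4.92% against 5.02%), AATATAAA (3.80% against 4.29%) and AAAATTAA (4.47% against 5.07%). The other words stood above those windows. The palindrome AAATATTT was in 34 member summits and 4 flanks (7.44% and 0.875%), in 5.14% of summits and 2.12% of flanks of shorter genes, and in 3.91% of long-gene windows weighted to the GC content of the member summits. ACAAATAT was in 5.47% of member summits and 0.875% of flanks, in 4.80% of summits and 1.34% of flanks of shorter genes, and in 2.12% of the weighted windows. No test was made of these words, since they were picked after counting 17895 of them.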
